A study of Mus musculus with 6 samples.

Results

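The genes described here encode the class IIa histone deacetylases, the MEF2 transcription factors and the calcineurin-NFAT branch of hypertrophy signalling. They were chosen by symbol as a fixed set of 10, namely Ppp3ca, Rcan1, Nfatc3, Hdac4, Hdac5, Hdac7, Hdac9, Mef2a, Mef2c and Mef2d, and all 10 were found among the 22913 genes of the count table. Their RNA was measured by sequencing polyadenylated RNA from HL-1 cells, which are mouse cardiomyocytes of atrial origin kept as a dividing line, 48 h after plasmid transfection with a lipid reagent. The groups were 3 libraries from cells given an HSPA1A overexpression plasmid and 3 libraries from cells given a control plasmid (Ctrl), so transfection itself was common to all 6. HSPA1A is a stress-inducible HSP70 chaperone, and the labels call the introduced gene human. Nothing in the labels says that the libraries of a group came from separate cultures. Each p-value therefore reflects library-to-library spread that could be technical.

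Calcineurin is a calcium- and calmodulin-dependent phosphatase. When cell calcium rises it removes phosphates from NFAT proteins, which then enter the nucleus, and in the heart this route is known to drive hypertrophic growth. Class IIa histone deacetylases bind MEF2 factors and hold their target genes silent. Kinases such as CaMKII and protein kinase D phosphorylate these deacetylases, 14-3-3 proteins then carry them out of the nucleus, and MEF2 is released. Much of this control acts on proteins, through phosphorylation and location, which RNA counts do not show.

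The libraries held 23849656 to 26897086 counts. Mouse Hspa1a had 17, 20 and 11 counts in HSPA1A replicates 1 to 3, against 10, 17 and 11 in Ctrl replicates 1 to 3. That is a log2 fold change of 0.39 with a 95% interval from -0.38 to 1.16 (adjusted p = 0.795, edgeR's quasi-likelihood test). Reads of a human transcript count here only as far as they align to mouse genes, so the values do not measure the plasmid's own RNA directly. HSPA1A replicate 2 stood apart from the other HSPA1A libraries, at -15.1 on the first principal component of log2 levels, against 15.9 and 18.3 for HSPA1A replicates 1 and 3 and -8.27 to -4.33 for the Ctrl libraries. Results that rest on it are therefore given with and without it. Of 19 heart muscle markers 13 had an FPKM value (fragments scaled to gene length and library size) and 6 averaged at least 1, led by Des, Gja1 and Tnnt2 at 175, 36.2 and 30.4 FPKM in HSPA1A libraries and 201, 40.4 and 29.3 FPKM in Ctrl libraries. Summed over the list, heart muscle markers stood at 242 to 281 FPKM in HSPA1A libraries and 285 to 292 FPKM in Ctrl libraries. On this scale every HSPA1A library lay below every Ctrl library, by a narrow margin (281 against 285 FPKM). FPKM has no TMM step, the scaling between libraries used in the test. Whether the separation holds under that scaling was not tested. Des was the largest part of that sum. Des, Gja1, Gja5, Nkx2-5 and Gata4 had lower means in HSPA1A than in Ctrl libraries, and Tnnt2, Tnnc1 and Myl4 had higher ones. The part of this difference in the results for the 10 genes was not tested. The contractile and calcium release markers Actc1, Actn2, Tnni3 and Ryr2 were near 0, with no library above 0.16 FPKM. Nppa, Myh6, Myl7, Hcn4, Pln and Sln had no FPKM value. Of 8 fibroblast markers 7 were in the table and 4 averaged at least 1 FPKM (Col3a1, Col1a2, Col1a1 and Dcn). They summed to 132 to 162 FPKM in HSPA1A libraries and 152 to 155 FPKM in Ctrl libraries, smooth muscle markers to 20.3 to 27.5 and 23.3 to 26.8 FPKM, and macrophage markers to 2.97 to 5.47 and 2.31 to 3.96 FPKM. Most of the smooth muscle sum was Acta2, at means of 22.6 and 24.1 FPKM in HSPA1A and Ctrl libraries. Myh11, Cnn1 and Rgs5 had at most 0.08 FPKM in any library. Most of the macrophage sum was Cd68, at 3.86 and 2.98 FPKM. Csf1r and Lyz2 had at most 0.11 FPKM, and Adgre1 and C1qa had no FPKM value. The leukocyte marker Ptprc had at most 0.01 FPKM in any library. Endothelial markers summed to at most 0.2 FPKM in any library, and 0 tested markers of any of these lists passed the test.

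The 10 genes spanned a wide range of levels in these cells. Per gene length, Ppp3ca was the most abundant, at a mean of 77.2 FPKM over the 6 libraries, and Mef2c the least, at 0.178 FPKM. Between them came Mef2d, Mef2a, Rcan1, Hdac4, Hdac5, Nfatc3, Hdac7 and Hdac9, at 12.8, 12, 9.5, 6.3, 5.35, 4.06, 3.11 and 0.258 FPKM. The order was the same in both groups. In HSPA1A libraries the ranges of Mef2d and Mef2a overlapped, as did those of Hdac4 and Hdac5, Hdac5 and Nfatc3, Nfatc3 and Hdac7, and Hdac9 and Mef2c. In Ctrl libraries Hdac9 and Mef2c were the 1 pair of neighbours whose ranges overlapped.

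**Figure D1:**
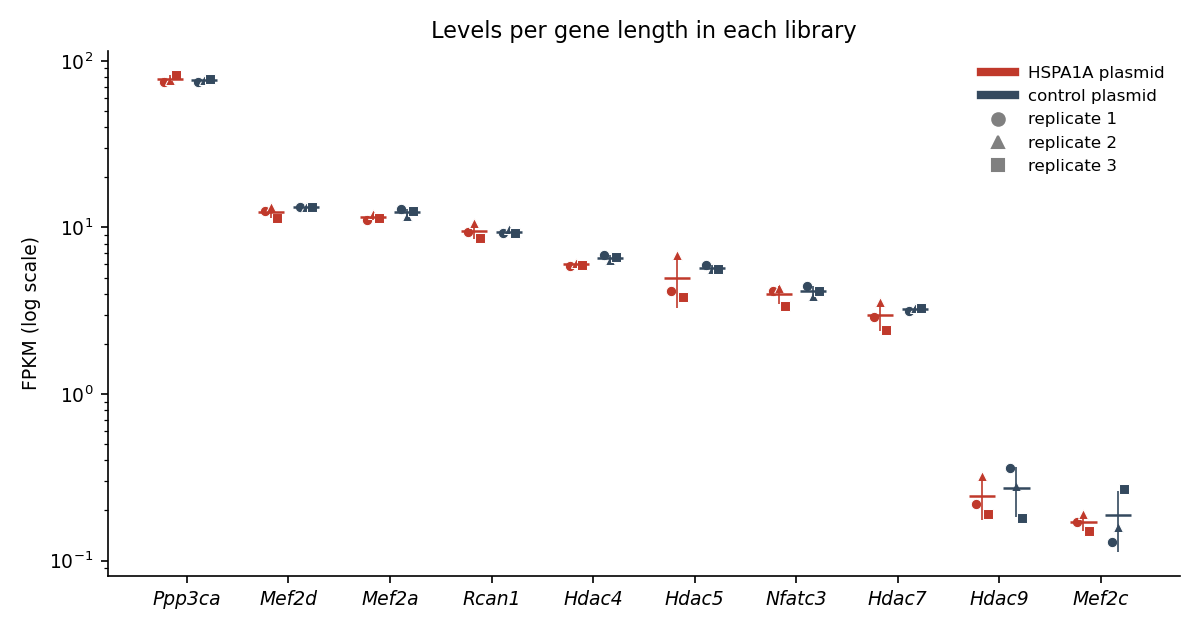
Level of each gene in FPKM on a log axis, with HSPA1A libraries (red) left of Ctrl libraries (blue), marker shape giving the replicate, horizontal bars the group mean and vertical bars the SD (n = 3). Ppp3ca lies at 74.2 FPKM or above in every library, while Hdac9 and Mef2c lie at 0.36 FPKM or below.

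In the comparison of HSPA1A with Ctrl cells, none of the 10 genes passed the test, with 0 called by edgeR's quasi-likelihood test at an adjusted p under 0.05, where 0.179% of the 12827 tested genes were called. At an unadjusted p under 0.05 the count was also 0 of 10, against 8.59% of tested genes, and DESeq2 called 0 of 10, against 0.499% of tested genes. The log2 fold changes ran from -0.16 for Hdac5 to 0.084 for Ppp3ca, with 8 below 0 and 2 above, and a median of -0.056 beside 0.0029 over all tested genes. Adjusted p-values over all genes ran from 0.71 to 0.98.

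Ppp3ca encodes the alpha catalytic subunit of calcineurin (ENSMUSG00000028161.15, chr3:136670124-136937727, plus strand, GRCm38). It had 74.2, 76.63 and 82.7 FPKM in HSPA1A replicates 1 to 3, against 75.05, 76.26 and 78.09 FPKM in Ctrl replicates 1 to 3. On this scale HSPA1A replicate 3 was the highest library and HSPA1A replicate 1 the lowest, so the groups overlapped. Scaled by TMM, HSPA1A replicates 1 to 3 had 397, 391 and 444 CPM (counts scaled to library size). Ctrl replicates 1 to 3 had 384, 383 and 395 CPM. HSPA1A replicates 1 and 3 then lay above every Ctrl library, and HSPA1A replicate 2 lay within the Ctrl range. The means were 411 ± 29 CPM in HSPA1A and 387 ± 6.39 CPM in Ctrl libraries (SD, n = 3 each). The log2 fold change was 0.084 ± 0.059 (SE), and its 95% interval reached from 3.19% lower (-3.19%) to 16.1% higher in HSPA1A cells. Without HSPA1A replicate 2 it was 0.12 ± 0.05, with an adjusted p of 0.148 by the same test, and without HSPA1A replicate 3, the highest library, it was 0.026 ± 0.052 (adjusted p = 0.972).

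The other calcineurin genes were lower in level than Ppp3ca. Ppp3cb and Ppp3cc, which encode the beta and gamma catalytic subunits, averaged 12.9 ± 0.663 and 17.1 ± 1.24 FPKM in HSPA1A libraries, against 13.5 ± 0.0666 and 18.4 ± 0.737 FPKM in Ctrl libraries (SD, n = 3 each). Ppp3ca thus held 72.1% ± 0.867 of the summed catalytic subunit FPKM in HSPA1A libraries and 70.5% ± 0.137 in Ctrl libraries (SD, n = 3 each). The regulatory subunit gene Ppp3r1 stood at 46.4 ± 0.867 and 48.1 ± 0.917 FPKM in HSPA1A and Ctrl libraries. Log2 fold changes of Ppp3cb, Ppp3cc and Ppp3r1 were -0.01, -0.04 and 0, with adjusted p-values of 0.977, 0.902 and 0.987 in edgeR's test.

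Rcan1 encodes a calcineurin regulator that binds and inhibits the phosphatase, and one of its transcripts is itself a known NFAT target, so it is often read as a sign of calcineurin activity. The gene (ENSMUSG00000022951.13, chr16:92391953-92470867, minus strand, GRCm38) has 2 start site windows in the RefSeq promoter table of GRCm38.p6. The downstream window, chr16:92400029-92400328 on the minus strand, is shown because it holds 3 matches to the NFAT core letters GGAAA on either strand (TTTCC on the other), and the upstream window holds 0. Over all 32851 windows of 300 bases, 61.3% held at least 1 such match and 9.42% held 3 or more, so the letters are common. The downstream window reads, with the matches in capitals:
Rcan1 downstream start: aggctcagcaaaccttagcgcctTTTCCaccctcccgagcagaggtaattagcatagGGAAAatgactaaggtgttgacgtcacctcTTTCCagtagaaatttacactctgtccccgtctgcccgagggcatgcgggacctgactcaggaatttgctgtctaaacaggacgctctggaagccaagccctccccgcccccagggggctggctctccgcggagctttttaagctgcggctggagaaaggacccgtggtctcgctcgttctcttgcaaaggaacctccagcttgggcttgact
The counts are per gene and do not separate transcripts from the 2 start sites.

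Rcan1 had 9.37, 10.63 and 8.65 FPKM in HSPA1A replicates 1 to 3, against 9.21, 9.8 and 9.32 FPKM in Ctrl replicates 1 to 3. HSPA1A replicate 2 was the highest library and HSPA1A replicate 3 the lowest. The means were 26.3 ± 2.05 CPM in HSPA1A and 25 ± 0.629 CPM in Ctrl libraries (SD, n = 3 each), a log2 fold change of 0.074 ± 0.072 (SE) with an adjusted p of 0.814 in edgeR's test. Its 95% interval ran from -5.72% to 17.5%, and the log2 fold change without HSPA1A replicate 2 was 0.016. The related genes Rcan2 and Rcan3 were less abundant, at 0.967 ± 0.159 and 1.45 ± 0.0808 FPKM in HSPA1A libraries, against 1.03 ± 0.192 and 1.45 ± 0.0907 FPKM in Ctrl libraries (SD, n = 3 each). Over the 6 libraries the genes most like Rcan1 in log2 CPM were Ftl1, Mettl9 and Glmp, with Pearson's r of 0.985, 0.983 and 0.98. With 6 points and 9716 genes compared, 29 genes had an r of at least 0.95, and none of the 3 named genes passed the test between groups.

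Nfatc3 encodes a calcineurin-dependent NFAT transcription factor (ENSMUSG00000031902.9, chr8:106058840-106130537, plus strand, GRCm38). It had 4.15, 4.34 and 3.4 FPKM in HSPA1A replicates 1 to 3, against 4.44, 3.88 and 4.13 FPKM in Ctrl replicates 1 to 3. HSPA1A replicate 3 was lowest and the other HSPA1A libraries lay within the Ctrl range. HSPA1A over Ctrl, the log2 fold change was -0.011 ± 0.09 (SE), with a 95% interval from -13.6% to 13.9%. Nfatc3 made up 69.3% ± 2.45 of the summed FPKM of Nfatc1 to Nfatc4 in HSPA1A libraries and 71.8% ± 0.809 in Ctrl libraries (SD, n = 3 each). Nfatc1 made up most of the remainder, and Nfatc2 and Nfatc4 had at most 0.04 FPKM in any library.

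The class IIa deacetylases had different arrangements of libraries. Hdac4 (ENSMUSG00000026313.13, chr1:91928779-92195699, minus strand, GRCm38), a repressor of MEF2 that is shuttled out of the nucleus after phosphorylation by CaMKII, had 53.3, 53.2 and 53.9 CPM in HSPA1A replicates 1 to 3, against 58.9, 54.2 and 56.5 CPM in Ctrl replicates 1 to 3. All 3 HSPA1A libraries lay below every Ctrl library. This held for 1 of the 10 genes, against 7.17% of all tested genes, while 0 of the 10 had all HSPA1A libraries above every Ctrl library, against 7.30%. The log2 fold change of Hdac4 was -0.081 ± 0.053 (SE) with an adjusted p of 0.71 in edgeR's test, and its 95% interval ran from -12.8% to 2.55%. Without HSPA1A replicate 2 it was -0.075.

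Hdac5 encodes a class IIa deacetylase known in mice as a brake on cardiac growth. The gene lies at chr11:102194432-102230166 on the minus strand of GRCm38 (ENSMUSG00000008855.15). Its RefSeq promoter window, chr11:102230123-102230422 on the minus strand of GRCm38.p6, is shown because it holds an exact MEF2 site, beginning at position -20 from the start site, whose 10 letters are capitalised:
Hdac5 promoter: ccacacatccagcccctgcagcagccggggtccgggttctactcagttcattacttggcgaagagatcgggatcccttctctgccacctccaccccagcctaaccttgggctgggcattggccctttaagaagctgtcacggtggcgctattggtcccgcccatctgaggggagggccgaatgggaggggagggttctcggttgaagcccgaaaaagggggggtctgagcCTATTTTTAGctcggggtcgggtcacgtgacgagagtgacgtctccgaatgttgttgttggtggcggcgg
The capitalised letters, on either strand, occurred in 36 of 32851 windows (0.11%), and the looser MEF2 consensus, searched on both strands, in 3.19%. Hdac5 and Mef2a were the members with the exact letters. A match describes the sequence and is not evidence of binding.

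Hdac5 had 26.2, 41.2 and 23.9 CPM in HSPA1A replicates 1 to 3, against 35.8, 33.4 and 33.3 CPM in Ctrl replicates 1 to 3. The Ctrl libraries lay close together, HSPA1A replicates 1 and 3 lay below all of them, and HSPA1A replicate 2 lay above all of them. On the log2 scale the 3 HSPA1A libraries differed from the Ctrl mean by -0.38, 0.27 and -0.51. Their SD was 0.419 against 0.0601 in Ctrl libraries, a ratio of 6.97, where the median ratio over all tested genes was 1.55. Hdac7, Ppp3ca, Mef2d and Rcan1 also lay above that median, at 12.1, 4.22, 4.03 and 3.12. Nfatc3, Hdac9, Mef2a, Mef2c and Hdac4 lay below it, at 1.44, 0.664, 0.362, 0.224 and 0.168. A range within the HSPA1A group as wide as that of Hdac5, 0.783 log2 units, was seen in 933 of the 12827 tested genes (7.27%).

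Over all 6 libraries the log2 fold change of Hdac5 was -0.16 ± 0.16 (SE), with a 95% interval from -30.3% to 14.8% (adjusted p = 0.821, edgeR's quasi-likelihood test). Without HSPA1A replicate 2 it was -0.45 ± 0.067, 26.6% lower in HSPA1A cells (-26.6%), and passed the test (adjusted p = 0.000923). Without HSPA1A replicate 1 it was -0.064 ± 0.17 and without HSPA1A replicate 3 -0.012 ± 0.15, neither of which passed (adjusted p = 0.968 and 0.997, edgeR's test). In the fit without HSPA1A replicate 2, 1 of the 10 genes was called, against 10.2% of the 12955 genes tested in it, so the share of members called was near that of all genes. That replicate was singled out from these same data, so the call of Hdac5 without it is not independent support for a change. The share of counts on the noncoding transcript Yam1 moved against Hdac5 among the HSPA1A libraries, at 2.70%, 1.58% and 2.53% in HSPA1A replicates 1 to 3, against 1.86%, 1.18% and 1.23% in Ctrl replicates 1 to 3. Among Ctrl libraries replicate 1 was the highest for both Yam1 and Hdac5. Yam1 also differed in mean between the groups, at 23100 CPM in HSPA1A and 14100 CPM in Ctrl libraries, with overlap. In a fit with log2 CPM of Yam1 added the log2 fold change of Hdac5 was 0.14 ± 0.18, on the other side of 0 and not called (adjusted p = 0.999). Because Yam1 varied with the group, that fit cannot fully tell the 2 apart. The genes most like Hdac5 over the 6 libraries were Pcdhga1, Ttyh2 and Gnai2, with Pearson's r of 0.997, 0.997 and 0.996. Of the 9716 genes compared, 203 had an r of at least 0.95 with Hdac5. Pcdhga1 belongs to a protocadherin cluster whose genes share exons, so its own count is uncertain.

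**Figure D2:**
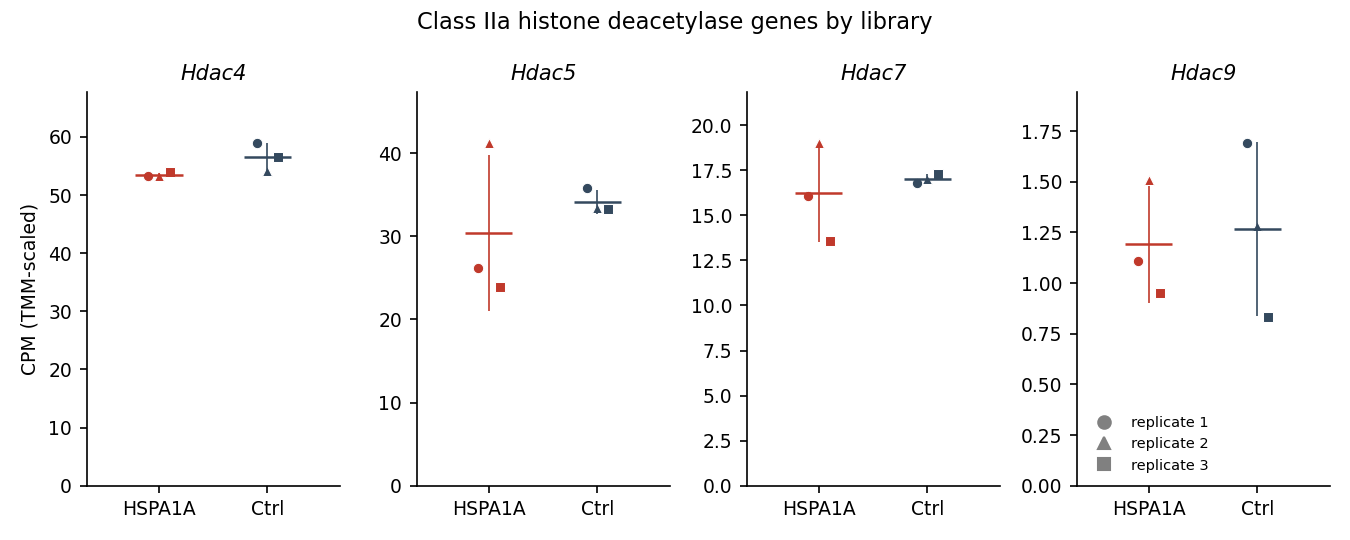
CPM of the 4 class IIa deacetylase genes in each library, with HSPA1A (red) left of Ctrl (blue), horizontal bars for means and vertical bars for SD (n = 3), and axes that start at 0. Hdac5 and Hdac7 have HSPA1A replicate 2 above and replicates 1 and 3 below every Ctrl library, while the HSPA1A libraries of Hdac4 lie between 53.2 and 53.9 CPM.

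Hdac7, a class IIa deacetylase known for its role in endothelial cells and T cells of mice (ENSMUSG00000022475.16, chr15:97792664-97844502, minus strand, GRCm38), had the same arrangement of libraries as Hdac5. It had 16.1, 19 and 13.6 CPM in HSPA1A replicates 1 to 3, against 16.8, 17 and 17.3 CPM in Ctrl replicates 1 to 3. HSPA1A replicate 2 again stood above every Ctrl library, and replicates 1 and 3 below. This arrangement, looked for because Hdac5 showed it, was found for 2 of the 10 genes, against 7.17% of all tested genes. Hdac5 itself is counted in that share, so its part was fixed in advance. The opposite, with HSPA1A replicate 2 below and replicates 1 and 3 above every Ctrl library, was found for 0 of the 10, against 6.94% of tested genes. The log2 fold change of Hdac7 was -0.068 ± 0.11 (SE) over all libraries and -0.20 ± 0.087 without HSPA1A replicate 2, which missed the threshold (adjusted p = 0.17, edgeR's test). Exons of Hdac7 overlap the span of Slc48a1, a heme transporter gene on the other strand, and overlap between exons of both genes was not tested. Slc48a1 had 133, 197 and 138 CPM in HSPA1A replicates 1 to 3, against 165, 135 and 147 CPM in Ctrl replicates 1 to 3. No source used here gives the strand setting of the counting, so reads of the pair cannot be told apart with certainty.

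Hdac9 (ENSMUSG00000004698.9, chr12:34047580-34917095, minus strand, GRCm38), whose loss in mice sensitises the heart to hypertrophic signals, was scarce. It had 26, 41 and 23 counts in HSPA1A replicates 1 to 3, against 45, 32 and 22 counts in Ctrl replicates 1 to 3. The lowest library and the highest were Ctrl libraries. The sums of 90 and 99 counts in HSPA1A and Ctrl libraries had exact 95% Poisson intervals of 72.4 to 111 and 80.5 to 121, which cover counting error only. Fitted over all libraries, the log2 fold change was -0.081 ± 0.3 (SE), with a 95% interval from -40.3% to 49.7%, and was not called (adjusted p = 0.95, edgeR's test).

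Within the class IIa family the shares of Hdac5 and Hdac4 in the summed FPKM varied more among HSPA1A than among Ctrl libraries. A share depends on every gene in the sum, so that of Hdac4 falls when Hdac5 rises. The level of Hdac4 itself varied less among HSPA1A libraries, with an SD of log2 CPM of 0.0101 against 0.0606 in Ctrl libraries. Hdac5 made up 31.6%, 40.6% and 30.7% in HSPA1A replicates 1 to 3, against 36.6%, 36.3% and 35.7% in Ctrl replicates 1 to 3. Hdac4 made up 44.7%, 36.3% and 48% in HSPA1A replicates 1 to 3, against 41.7%, 40.9% and 42.1% in Ctrl replicates 1 to 3. HSPA1A replicate 2 was the 1 library in which Hdac5 exceeded Hdac4 per gene length. The summed class IIa FPKM was 13.2, 16.9 and 12.4 in HSPA1A replicates 1 to 3 and 16.3, 15.6 and 15.7 in Ctrl replicates 1 to 3.

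MEF2 factors bind DNA as dimers through their MADS domain and switch on genes of muscle differentiation and growth. Mef2a (ENSMUSG00000030557.14, chr7:67231163-67372858, minus strand, GRCm38) carries the reverse complement of the same MEF2 letters in its own RefSeq promoter window, chr7:67372809-67373108 on the minus strand of GRCm38.p6, beginning at position -2. It is shown beside that of Hdac5 for comparison, with the match in capitals:
Mef2a promoter: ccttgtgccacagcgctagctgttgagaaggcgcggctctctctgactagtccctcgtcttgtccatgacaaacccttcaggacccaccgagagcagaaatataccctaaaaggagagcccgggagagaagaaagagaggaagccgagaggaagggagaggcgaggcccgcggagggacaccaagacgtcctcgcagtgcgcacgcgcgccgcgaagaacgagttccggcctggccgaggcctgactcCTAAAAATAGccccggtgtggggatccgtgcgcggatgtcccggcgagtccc
The exact letters were found in windows of 33 genes, of which 12 were tested here and 0 called by edgeR's test (0 at an unadjusted p under 0.05). Their median log2 fold change was -0.037. The 12 included Jun, Speg and Xirp2 beside Hdac5 and Mef2a, and Hdac5 was the 1 gene among them called without HSPA1A replicate 2, which is 8.33% of the 12, against 10.2% of all genes in that fit.

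Mef2a had 70.6, 73.3 and 73.3 CPM in HSPA1A replicates 1 to 3, against 78.7, 70.1 and 75.2 CPM in Ctrl replicates 1 to 3. The HSPA1A libraries lay within the Ctrl range. The log2 fold change was -0.044 ± 0.057 (SE), with a 95% interval from -11.1% to 5.81% (adjusted p = 0.858, edgeR's test). Exons of Mef2a overlap the span of Lysmd4 on the other strand, which had at most 137 counts in a library, against at least 1654 for Mef2a.

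Mef2d (ENSMUSG00000001419.15, chr3:88142372-88172086, plus strand, GRCm38), a factor required in mice for full hypertrophic growth of the heart under stress, had 82, 82.2 and 74.5 CPM in HSPA1A replicates 1 to 3, against 83.3, 81.1 and 81.6 CPM in Ctrl replicates 1 to 3. HSPA1A replicate 3 was the lowest and the others lay within the Ctrl range. On the authors' FPKM scale, which has no TMM step, all HSPA1A values (12.57, 13.2 and 11.38) lay below the Ctrl values (13.33, 13.24 and 13.24), so the separation of the groups depended on the scaling. For Mef2d the log2 fold change was -0.043 ± 0.055 (SE), with a 95% interval from -10.8% to 5.64% (adjusted p = 0.858, edgeR's test).

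Mef2c (ENSMUSG00000005583.14, chr13:83504034-83667080, plus strand, GRCm38), which is required for heart development in the mouse embryo, was scarce here. It had 32, 40 and 30 counts in HSPA1A replicates 1 to 3, against 27, 30 and 56 counts in Ctrl replicates 1 to 3. Ctrl replicate 3 was the highest library and Ctrl replicate 1 the lowest. The sums of 102 and 113 counts in HSPA1A and Ctrl libraries had exact 95% Poisson intervals of 83.2 to 124 and 93.1 to 136. For Mef2c the log2 fold change was -0.085 ± 0.29 (SE) over all libraries and 0.30 without Ctrl replicate 3, and neither passed the test. Mef2c made up 0.704% ± 0.0477 of the summed FPKM of the 3 MEF2 genes in HSPA1A libraries and 0.723% ± 0.283 in Ctrl libraries (SD, n = 3 each). Mef2d and Mef2a made up the remainder of that sum, at 51.4% and 47.9% in HSPA1A libraries and the same in Ctrl libraries. Mef2b was looked for by symbol and had no FPKM value.

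**Figure D3:**
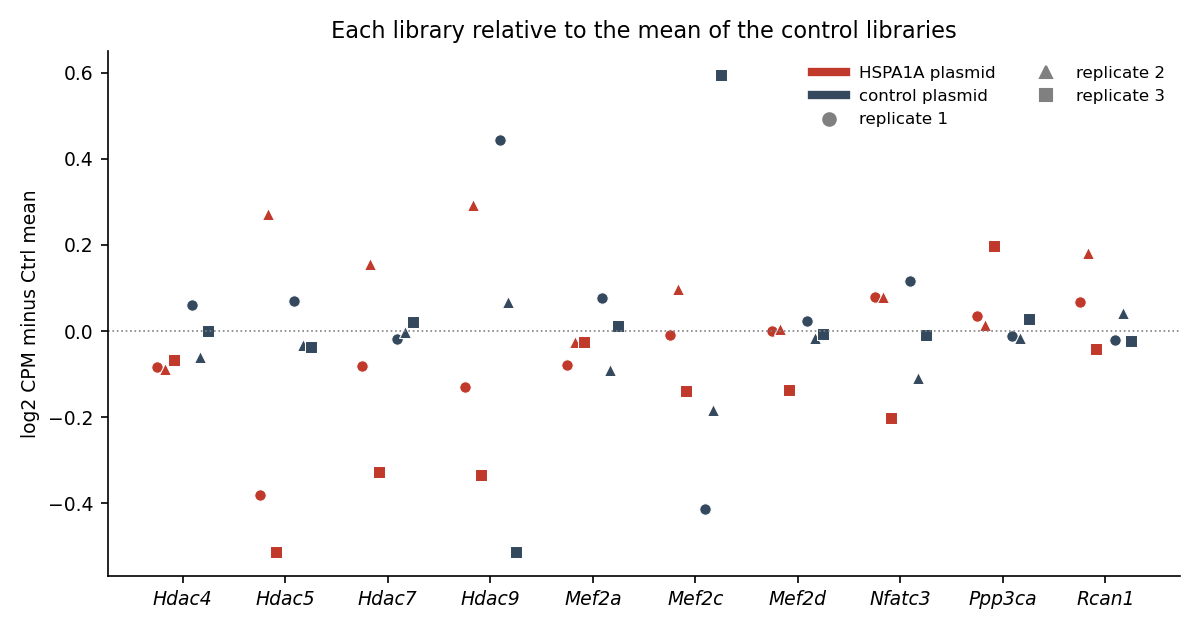
Log2 CPM of each library minus the mean of the 3 Ctrl libraries, for each gene, with HSPA1A libraries (red) left of Ctrl libraries (blue) and marker shape giving the replicate. Hdac5 has the widest gap among abundant genes, with HSPA1A replicates at -0.38, 0.27 and -0.51, and the scatter of Hdac9 and Mef2c extends to Ctrl libraries as well.

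**Figure D4:**
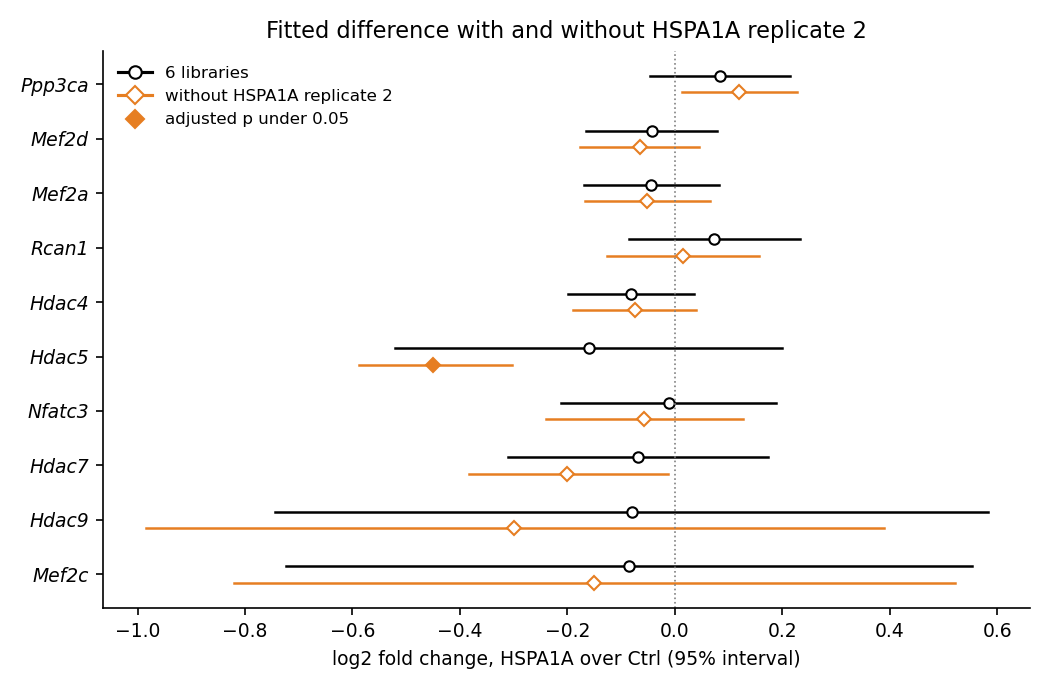
Fitted log2 fold change, HSPA1A over Ctrl, with its 95% interval for each gene, over all 6 libraries (black circles) and without HSPA1A replicate 2 (orange diamonds), where filled symbols pass an adjusted p of 0.05 in edgeR's test. All intervals over 6 libraries include 0, and Hdac5 is the filled symbol at -0.45 without HSPA1A replicate 2.

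The wider pathway was described with 8 lists of partners, kinases, cofactors and reported targets, which held 89 tested genes other than the 10 members. Of these, 0 were called by edgeR's test, where 0.179% of all tested genes were called, and DESeq2 called 0, against 0.499%. An unadjusted p under 0.05 was found for 5 of the 89 (5.62%, 1 higher and 4 lower), a smaller share than the 8.59% of all tested genes. Their median log2 fold change was -0.021 beside 0.0029 over all tested genes. Without HSPA1A replicate 2, 0 were called higher and 6 lower, 6.74% of the 89, where 5.27% of all tested genes were called higher and 4.94% lower. The 6 were Calm3, Dyrk1b, Gps2, Hdac6, Adssl1 and Klf2. An HSPA1A replicate 2 above and replicates 1 and 3 below every Ctrl library, as in Hdac5, was found for 10 of the 89 (11.2%), Ppp3cb and Camk2g among them, against 7.17% of all tested genes. The opposite arrangement was found for 4 of the 89 (4.49%), against 6.94% of all tested genes. All HSPA1A libraries lay above every Ctrl library for 4 of the 89 and below for 13, against 7.30% and 7.17% of all tested genes. The genes named below as having no overlap are among these.

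Among calcineurin and NFAT partners, 0 of 11 tested genes passed the test and the list median was -0.018. The smallest p-values belonged to Akap1, a kinase-anchoring protein gene of the outer mitochondrial membrane, with 31 ± 2.26 CPM in HSPA1A and 35.2 ± 1.27 CPM in Ctrl libraries, and Nfatc1, with 13.9 ± 0.656 and 12.5 ± 0.651 CPM (SD, n = 3 each). Their groups did not overlap, but the adjusted p-values were 0.516 and 0.635 in edgeR's test. Among calmodulin and calcium entry genes 0 of 9 passed. Calm3, a calmodulin gene, had 158, 187 and 152 CPM in HSPA1A replicates 1 to 3, against 183, 174 and 182 CPM in Ctrl replicates 1 to 3. Its log2 fold change was -0.12 over all libraries and -0.21 without HSPA1A replicate 2 (adjusted p = 0.00934, edgeR's test).

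Of the class IIa deacetylase kinases, 0 of 14 passed, with a median log2 fold change of -0.025. Sik1, a salt-inducible kinase gene, had 9.61, 10.9 and 9.48 CPM in HSPA1A replicates 1 to 3, against 11.8, 11.1 and 11.6 CPM in Ctrl replicates 1 to 3. Mark2, whose kinase also phosphorylates class IIa deacetylases, had 45.8 ± 3 CPM in HSPA1A and 49.7 ± 1.74 CPM in Ctrl libraries (SD, n = 3 each). Neither passed over all libraries (adjusted p = 0.594 and 0.625, edgeR's test). The groups did not overlap for either gene. The CaMKII gene Camk2d had a log2 fold change of 0.051 and Prkd3, of the protein kinase D family, one of -0.12. Of the NFAT kinases 0 of 10 passed, with values from -0.082 to 0.056. Dyrk1b, of the DYRK kinase family, had 3.2, 7.2 and 3.56 CPM in HSPA1A replicates 1 to 3, against 4.92, 5.13 and 4.88 CPM in Ctrl replicates 1 to 3. Its log2 fold change was -0.08 over all libraries and -0.55 ± 0.15 (SE) without HSPA1A replicate 2 (adjusted p = 0.0298, edgeR's test).

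The 14-3-3 genes had 0 of 7 called, a median of -0.03 and values from -0.098 for Ywhaq to 0.035 for Sfn. Ywhaq had 352 ± 13.1 CPM in HSPA1A and 376 ± 10.1 CPM in Ctrl libraries, and Ywhag 468 ± 21.6 and 486 ± 24.1 CPM (SD, n = 3 each). Among the other deacetylases and the NCoR corepressor complex, 0 of 12 passed and the median was -0.038. Gps2, a subunit of that complex, had 27.7, 32.3 and 28 CPM in HSPA1A replicates 1 to 3, against 34.6, 33.6 and 33.1 CPM in Ctrl replicates 1 to 3, with no overlap of the groups. Its log2 fold change was -0.20 (adjusted p = 0.49, edgeR's test) over all libraries and -0.28 without HSPA1A replicate 2 (adjusted p = 0.00895). Hdac6, which encodes a cytoplasmic tubulin deacetylase, had 12.8, 16.3 and 12.7 CPM in HSPA1A replicates 1 to 3, against 16.4, 15.5 and 16.5 CPM in Ctrl replicates 1 to 3. Its value was -0.21 with and -0.34 without HSPA1A replicate 2, where it was called (adjusted p = 0.0186, edgeR's test). The class I genes Hdac1, Hdac2 and Hdac3 averaged 20.2, 37.8 and 30.3 FPKM in HSPA1A libraries and 22.2, 38.7 and 32.5 FPKM in Ctrl libraries. Each lay above every class IIa gene in both groups. With TMM scaling their log2 fold changes were -0.08, 0.02 and -0.04, none called (adjusted p = 0.751, 0.933 and 0.843, edgeR's test).

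Cofactors of MEF2 and NFAT had 0 of 14 called, with a median of -0.038. Tead1, a transcription factor gene of muscle and growth control, had 72.4 ± 1.1 CPM in HSPA1A and 78.9 ± 1.65 CPM in Ctrl libraries (SD, n = 3 each), with no overlap and an adjusted p of 0.528 in edgeR's test. Myocd, the gene of the muscle coactivator myocardin, was scarce, at 0.373 ± 0.108 CPM in HSPA1A and 0.553 ± 0.0793 CPM in Ctrl libraries (SD, n = 3 each). Its log2 fold change of -0.55 ± 0.34 (SE) was not called (adjusted p = 0.692, edgeR's test). Gata4, a cardiac factor that works with NFAT proteins, had a log2 fold change of 0.022. Reported targets had 0 of 12 called and a median of 0.208, beside 0.0029 over all tested genes. Of the 12, 8 were above 0 and 4 below (Klf2, Adssl1, Ptgs2 and Jun). Large values such as 0.46 for Acta1, 0.38 for Xirp1 and 0.31 for Xirp2 had adjusted p-values of 0.821, 0.697 and 0.817 in edgeR's test. The list as a whole was not tested. Values ran from -0.082 for Klf2 to 0.67 for Myom1, a sarcomere gene, and the natriuretic peptide gene Nppb was among those not called, at 0.21 (adjusted p = 0.776, edgeR's test). Adssl1, a muscle enzyme gene of purine metabolism, had 27.2, 41.1 and 27.4 CPM in HSPA1A replicates 1 to 3, against 34.6, 31.7 and 35.3 CPM in Ctrl replicates 1 to 3. Klf2, a transcription factor gene, had 34.6, 47.4 and 37.9 CPM in HSPA1A replicates 1 to 3, against 44.1, 43.6 and 39.4 CPM in Ctrl replicates 1 to 3. In each of them HSPA1A replicate 2 was above and the other HSPA1A libraries below every Ctrl library. Without that replicate their log2 fold changes were -0.31 and -0.22 (adjusted p = 0.0079 and 0.0418, edgeR's test).

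**Figure D5:**
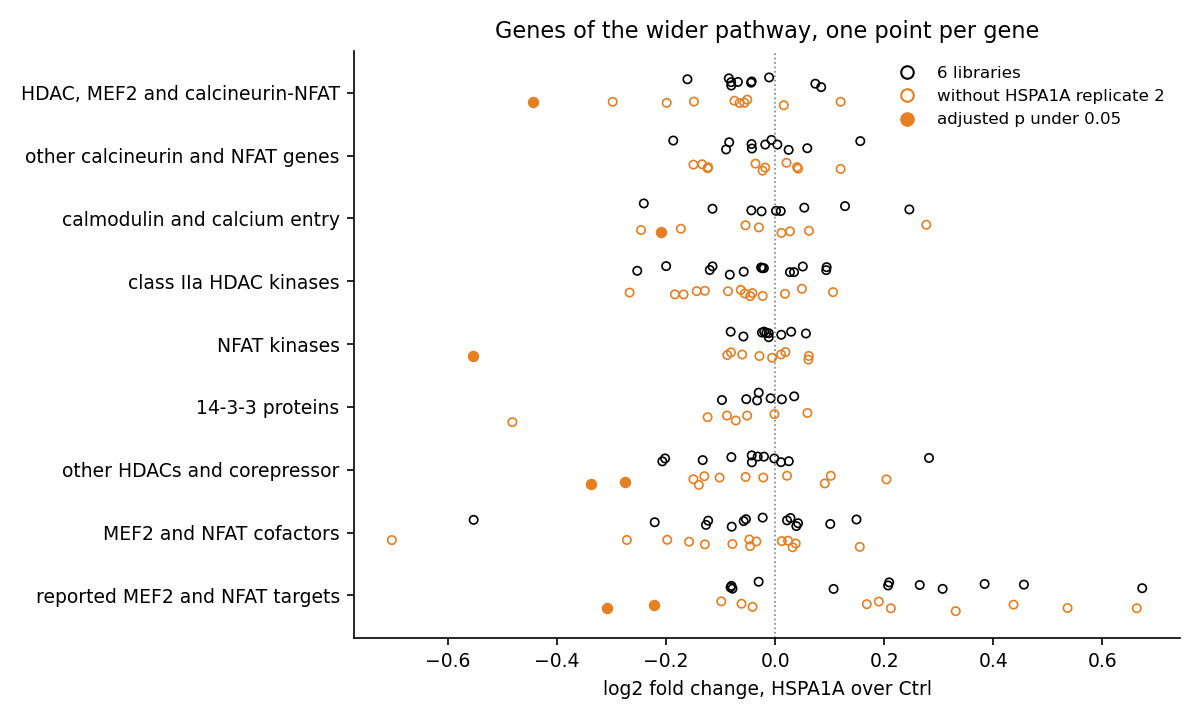
Log2 fold change, HSPA1A over Ctrl, for each tested gene of the 10 described genes and of the 8 wider lists, over all 6 libraries (black) and without HSPA1A replicate 2 (orange), where filled points pass an adjusted p of 0.05 in edgeR's test. No black point is filled, and the 7 filled orange points, Hdac5 and 6 wider genes, all lie below 0. Without HSPA1A replicate 2, which was singled out from these same data, 5.27% of all tested genes were called higher and 4.94% lower.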

How the data were processed

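The deposited files were a table of raw counts for 22913 genes and one of FPKM, made by the authors, for 22833 of them, both with 1 column per library, per the file headers. Per the submitters' processing notes, bcl2fastq, TopHat2, edgeR and build GRCm38 were used. The sources used here name no counter and no strand setting. Labels gave the groups and replicate numbers.

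Counts were scaled by TMM, filtered by filterByExpr (minimum count 10, minimum total 15) to 12827 genes and tested with edgeR 4.0.16 (quasi-likelihood, Benjamini-Hochberg over all genes, threshold 0.05) under R 4.3.3. FPKM served for levels between genes. On simulated counts for the HSPA1A and Ctrl comparison over 12827 genes, 74% of genes changed 1.5-fold and 92% changed 2-fold were called. The simulated spread of each gene followed the trend over all genes. No simulated library stood apart from its group as HSPA1A replicate 2 did, so these shares may not hold for the real libraries. Alternatives used DESeq2 1.42.0, limma 3.58.1 (also limma-trend on log2 of FPKM plus a pseudocount of 1 or 0.1), other scalings and filters, a replicate block, Yam1 as a covariate and each library left out. Positions came from GENCODE M21 and promoter sequences from RefSeq (GRCm38.p6), which covered 9 of the 10 genes. No library was a copy of another, with chi-square per degree of freedom from 2.79 to 28.2.

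The genes and lists were chosen with earlier results of these data known. Named from each wider list were genes called with or without HSPA1A replicate 2, or else the 2 with the smallest p. Named for likeness were the 3 genes with a mean of at least 5 CPM and the highest Pearson's r with Hdac5 and with Rcan1. Any other gene in the text was picked with its values known.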

Additional observations from a re-analysis of the deposited data

How the results depend on the processing

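Over 17 alternatives, the 10 genes gave 166 log2 fold changes, of which 155 kept their direction and their side of the threshold, 1 passed it and 10 changed sign. Hdac5 passed at -0.45 without HSPA1A replicate 2. With Yam1 as a covariate Hdac5, Hdac7 and Mef2c changed sign, at 0.14, 0.12 and 0.28, none past the threshold. The cause was not tested. Leaving out 1 library at a time gave -0.45 to -0.012 for Hdac5, 0.026 to 0.12 for Ppp3ca, -0.20 to 0.046 for Hdac7, -0.31 to 0.19 for Hdac9, -0.29 to 0.30 for Mef2c, -0.065 to 0.0035 for Mef2d and -0.063 to 0.077 for Nfatc3. Hdac4, Mef2a, Ppp3ca and Rcan1 kept their sign in every alternative. Hdac9 and Mef2c gave no value under the 5 CPM filter or the minimum mean FPKM of 1.

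The count of members called was 0 in every alternative except the fit without HSPA1A replicate 2, so leaving out libraries gave 0 to 1, and 0 to 6 of the wider genes. Over all genes 23 were called (3 higher and 20 lower), against 64 by DESeq2, 205 with no filter on low counts, 11 with Yam1 as a covariate, 15 in each of the 3 fits of log2 FPKM and 10 to 1323 when 1 library was left out, the highest without HSPA1A replicate 2. The replicate block gave 16 genes, with 0 members and Hdac5 at -0.20. Same-numbered libraries did not deviate together (r = -0.1, -0.00152 and 0.0847 for replicates 1 to 3), so the numbers were not taken as pairs. Depth was lowest for Hdac9 and Mef2c, with 22 to 56 counts per library, and their intervals were the widest of the 10 genes.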
